A study of Mus musculus with 7 samples.

Results

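The tRNAs that read the arginine codons AGA and AGG were measured by QuantM-seq in oligodendrocyte progenitor cells (OPCs), oligodendrocytes (OLs) and astrocytes of the mouse. They are the Arg-TCT tRNA, whose anticodon pairs with AGA, and the Arg-CCT tRNA, whose anticodon pairs with AGG. All tRNAs that share an anticodon form a pool, and the members of a pool that differ elsewhere in their sequence are its isodecoders. The pools labelled Arg-TCT and Arg-CCT, 2 of the 52 in the deposited tables, and every isodecoder named for them were taken, which gave 5 Arg-TCT and 4 Arg-CCT isodecoders of 217 in all. The isodecoders were thus picked by name, and no level served to sort them in or out.

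Arginine is encoded by a full codon box that begins with CG and by these 2 codons of a box that it shares with serine. A tRNA with a wobble uridine, such as Arg-TCT, can also read the codon that ends in G, so AGG is read by both tRNAs, whereas Arg-CCT reads AGG only. The wobble uridine of Arg-TCT is modified through the Elongator pathway, which aids decoding. The isodecoder Arg-TCT-4 is known for its expression in the nervous system of the mouse. Loss of this isodecoder together with the ribosome rescue factor GTPBP2 stalls ribosomes at AGA codons and causes neurodegeneration.

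The 7 libraries came from 3 OPC, 2 OL and 2 astrocyte cultures. All cells descended from epiblast stem cells of the strain 129S/SvEv that had been turned into OPCs in culture, and no library came from brain tissue. OPCs were kept in PDGFA and bFGF, OLs were made from OPCs with the thyroid hormone T3, noggin, IGF-1, cAMP and NT3, and astrocytes with BMP4, bFGF, Hb-EGF and CNTF, each over about 3 days. The stem cells came from male embryos. The OL cultures were derived from 2 of the OPC replicates, which ones was not given in the sources used here, and they still held cells that had not differentiated. The tables list tRNAs only, so the cell types could not be checked against their marker genes. The study's methods call the replicates biological, and p-values below measure the spread between these libraries.

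Levels are given in RPM, read counts scaled so that all cytosolic and mitochondrial tRNA reads of a library add up to the same total. From 1339021 to 2627351 such reads lay behind each library, and 3 reads corresponded to 1.14 to 2.24 RPM. Reads assigned elsewhere than to cytosolic tRNAs made up 4.98 to 6.94% in OPCs, 3.55 to 3.90% in OLs and 7.74 to 7.88% in astrocytes, so this proportion moved with the group. Scaling each library to its cytosolic tRNAs alone turned no direction among the 9 isodecoders in any of the 3 comparisons. It did take 4 of them past the threshold of an adjusted p under 0.01 in OLs against OPCs, beside 17 of all 192 tested. With the deposited scaling 0 of them passed, beside 11 of all 192. Every one of these isodecoders passed the filter of a mean of at least 1 RPM, and the fewest reads behind any of their values were 540. RPM were not divided by length, so an order of levels between tRNAs is an order of reads.

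The RefSeq annotation of GRCm38.p6 holds 5 Arg-TCT and 5 Arg-CCT genes, and the tables hold the same numbers, since Arg-CCT-2 stands for 2 identical genes. The gene symbols were not paired with the isodecoder names in the tables, so gene positions are given for the family and not for an isodecoder. The Arg-CCT genes are all 73 nucleotides long, and 4 of the 5 lie between genes, on chromosomes 11, 17 and X, while the other lies in an intron of Fmc1 on chromosome 6. The Arg-TCT genes span 74 to 87 nucleotides. Those on chromosomes 13 and 19 lie between genes, the one on chromosome 1 lies in an intron of Aim2, and the one on chromosome 11 overlaps an untranslated region of Hes7. The gene n-TRtct2 lies in an exon of the transcript Gm17494 on the minus strand at chr3:122292948-122293032. Its 85 nucleotides, read from the GENCODE transcript of that position, are shown because they hold the feature that defines the pool, the anticodon at positions 34 to 36 from the 5′ end, in capitals.
n-TRtct2: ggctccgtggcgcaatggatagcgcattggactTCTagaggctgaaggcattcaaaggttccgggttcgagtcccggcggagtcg

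The levels of both pools lay close together across the cell types. The Arg-TCT pool was at 15149, 14088 and 15191 RPM in the OPC libraries, at 14987 and 15442 RPM in the OL libraries and at 14380 and 13832 RPM in the astrocyte libraries. The OL values fell among those of OPCs except for the higher one, and the astrocyte values lay below both OL values. The coefficient of variation over the 7 libraries was 4.21%, and the pool ranked 22 of 52 by mean RPM. The Arg-CCT pool, ranked 31, was at 10325, 10906 and 10355 RPM in OPCs, 11483 and 11616 RPM in OLs and 10437 and 13285 RPM in astrocytes, with a coefficient of variation of 9.47%. Both OL libraries lay above every OPC library, whereas the astrocyte libraries lay far apart from each other.

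**Figure D1:**
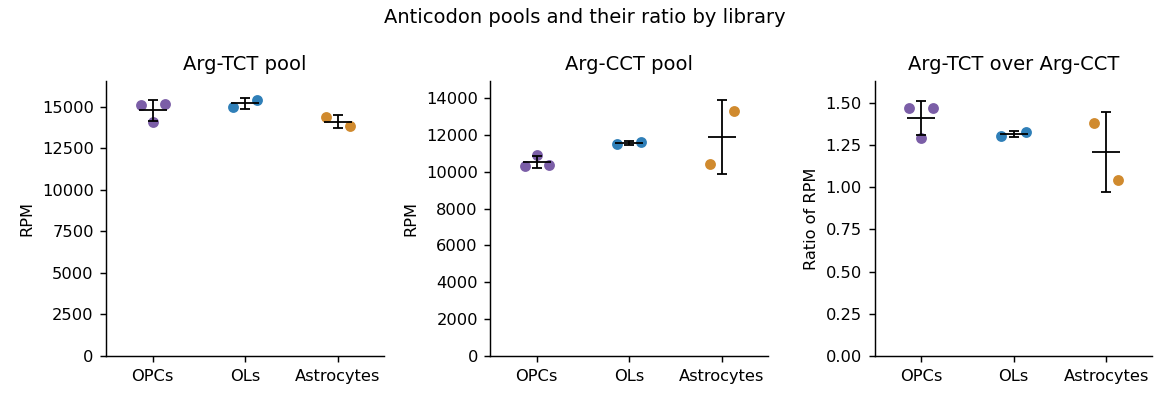
RPM of the Arg-TCT pool (left) and the Arg-CCT pool (middle) and the ratio of the former to the latter (right) in each library, where points are libraries and black bars give the mean ± SD of the 3 OPC, 2 OL and 2 astrocyte libraries. The ratio was above 1 in all 7 libraries, and astrocyte replicate 2 had the lowest, 1.04.

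Neither pool passed the threshold of an adjusted p under 0.01 in any comparison, and neither did any other pool (0% called in OLs against OPCs, 0% in astrocytes against OPCs and 0% in OLs against astrocytes). At an unadjusted p under 0.05, limma called 13, 6 and 8 of the 52 pools in these comparisons. The study used another test, DESeq2, and at the same threshold reported Phe-GAA and Leu-TAA lower and SeC-TCA higher in OLs than in OPCs. By limma on log2 RPM their adjusted p in that comparison was 0.185, 0.0428 and 0.0402. The Arg-CCT pool was 1.10-fold as high in OLs as in OPCs, a log2 change of 0.13 with a 95% interval of 0.02 to 0.24 (limma adjusted p = 0.132), beside a median change over all pools of 0.12. For the Arg-TCT pool the interval of the OL to OPC change ran from -0.09 to 0.17 on the log2 scale around 0.04 (adjusted p = 0.530), and under median-of-ratios scaling the value was -0.02. In astrocytes against OPCs the log2 changes were 0.16 for Arg-CCT (interval -0.15 to 0.48, adjusted p = 0.489) and -0.07 for Arg-TCT (interval -0.23 to 0.09, adjusted p = 0.531). Without astrocyte replicate 2 the Arg-CCT value was -0.01. OLs and astrocytes differed by 0.11 in Arg-TCT (interval -0.03 to 0.25, adjusted p = 0.327) and by -0.03 in Arg-CCT (interval -0.32 to 0.26, adjusted p = 0.886), and the latter was 0.15 without astrocyte replicate 2. Groups were apart, with no library of one within the range of the other, for Arg-CCT in OLs against OPCs, beside 48.1% of all pools, for neither pool in astrocytes against OPCs, beside 32.7%, and for Arg-TCT in OLs against astrocytes, beside 57.7%.

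The balance between the tRNA that reads AGA and AGG and the one that reads AGG alone was taken as the ratio of the pools in each library. It was 1.47, 1.29 and 1.47 in OPCs, 1.31 and 1.33 in OLs and 1.38 and 1.04 in astrocytes, so the OL values lay within the OPC range. For OPCs the mean ratio was 1.41 ± 0.10 (SD, n = 3), for OLs 1.32 ± 0.017 and for astrocytes 1.21 ± 0.238 (SD, n = 2 each). On the log2 scale OLs differed from OPCs by -0.09 (exact permutation p = 0.4, adjusted 0.6), astrocytes from OPCs by -0.23 (exact permutation p = 0.3, adjusted 0.6) and OLs from astrocytes by 0.14 (exact permutation p = 1, adjusted 1). The two-sided tests of 3 against 2 libraries cannot go below 0.1, and those of 2 against 2 not below 0.33, so none could have passed the threshold.

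Other boxes split between a wobble uridine and a wobble cytidine had other balances. In OPCs the ratio was 2.18 ± 0.338 for Lys-TTT over Lys-CTT, 0.72 ± 0.014 for Glu-TTC over Glu-CTC, 0.0268 ± 0.0064 for Gln-TTG over Gln-CTG and 2.92 ± 0.211 for Leu-TAA over Leu-CAA (SD, n = 3 each). The arginine ratio thus lay between those of glutamate and lysine, and the values of the 4 other boxes did not overlap with it in OPCs.

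Together the Arg-TCT and Arg-CCT pools made up 23.5, 23.9 and 21.8% of all cytosolic arginine tRNA reads in OPCs, 23.0 and 22.4% in OLs and 23.0 and 24.9% in astrocytes. The share differed by -0.32 percentage points between OLs and OPCs (exact permutation p = 0.8, adjusted 0.8) and by 0.88 points between astrocytes and OPCs (exact permutation p = 0.6, adjusted 0.8), with the same limits on p. OLs and astrocytes differed by -1.20 points (exact permutation p = 0.667, adjusted 0.8). Most arginine tRNA belonged to the full box, with Arg-TCG at 40.2 ± 1.32% of arginine tRNA in OPCs, Arg-ACG at 23.5 ± 1.51% and Arg-CCG at 13.3 ± 1.11%, beside 13.5 ± 0.495% for Arg-TCT and 9.60 ± 0.782% for Arg-CCT (SD, n = 3 each).

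The isodecoders moved more than the pools that they form, as isodecoders did across the whole series. In OLs against OPCs the median absolute log2 change was 0.29 over all isodecoders tested and 0.17 over all pools. Within the Arg-TCT pool, Arg-TCT-1 was the most abundant in every library, at 6882, 6093 and 5794 RPM in OPCs, 6730 and 6846 RPM in OLs and 7016 and 7350 RPM in astrocytes. Both astrocyte libraries lay above all others. Arg-TCT-2 stood at 4117, 3817 and 4832 RPM in OPCs, 3401 and 3569 RPM in OLs and 2695 and 2238 RPM in astrocytes. It stepped down without overlap from OPCs to OLs and again to astrocytes. Arg-TCT-3 stayed between 2745 RPM in OPC replicate 2 and 3252 RPM in OL replicate 2, and its coefficient of variation of 7.05% was the lowest of the 9 isodecoders.

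Arg-TCT-4, the isodecoder of the nervous system, was at 721, 883 and 822 RPM in OPCs, 1292 and 1431 RPM in OLs and 1111 and 987 RPM in astrocytes. All 4 libraries of differentiated cells lay above all 3 OPC libraries, and the OL libraries lay highest. It was thus present in the progenitors of these cultures, with 966 to 2000 reads a library. The reference to which the authors mapped was built from C57BL/6J, a strain known to carry a variant that impairs the processing of this tRNA, whereas the cells were 129S/SvEv, and the effect of this on its mapping was not tested. Arg-TCT-5, the least abundant of the 9, ran the other way, at 565, 550 and 534 RPM in OPCs, 340 and 343 RPM in OLs and 370 and 391 RPM in astrocytes. Here the OPC libraries lay highest and the OL libraries lowest. Over the 7 libraries, which differ in group and depth, the log2 levels of Arg-TCT-4 and Arg-TCT-5 had a Pearson r of -0.93. This was the lowest r among the 9 isodecoders, and the pair was named after its values were seen.

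In the Arg-CCT pool, Arg-CCT-4 gave most of the reads, at 6166, 6100 and 5362 RPM in OPCs, 8051 and 8182 RPM in OLs and 6006 and 7842 RPM in astrocytes. Both OL libraries lay above all others, and astrocyte replicate 1 lay within the OPC range. Arg-CCT-1 was at 1497, 1800 and 1770 RPM in OPCs, 1095 and 1071 RPM in OLs and 1340 and 1821 RPM in astrocytes. Arg-CCT-2 followed it, at 1211, 1461 and 1442 RPM in OPCs, 872 and 893 RPM in OLs and 1374 and 1591 RPM in astrocytes. The log2 levels of the pair had a Pearson r of 0.93 over the 7 libraries, the highest among the isodecoders of both pools. This pair too was named after its values were seen. Both were lowest in the OL libraries. Arg-CCT-3 was at 1452, 1544 and 1780 RPM in OPCs, 1466 and 1469 RPM in OLs and 1717 and 2031 RPM in astrocytes, and the OL values lay within the OPC range. Isodecoders of one pool can be alike in sequence, and reads that map to several of them can be split or dropped by the filter on mapping quality, which leaves the level of each less certain than that of the pool. How alike these isodecoders are was not compared here.

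**Figure D2:**
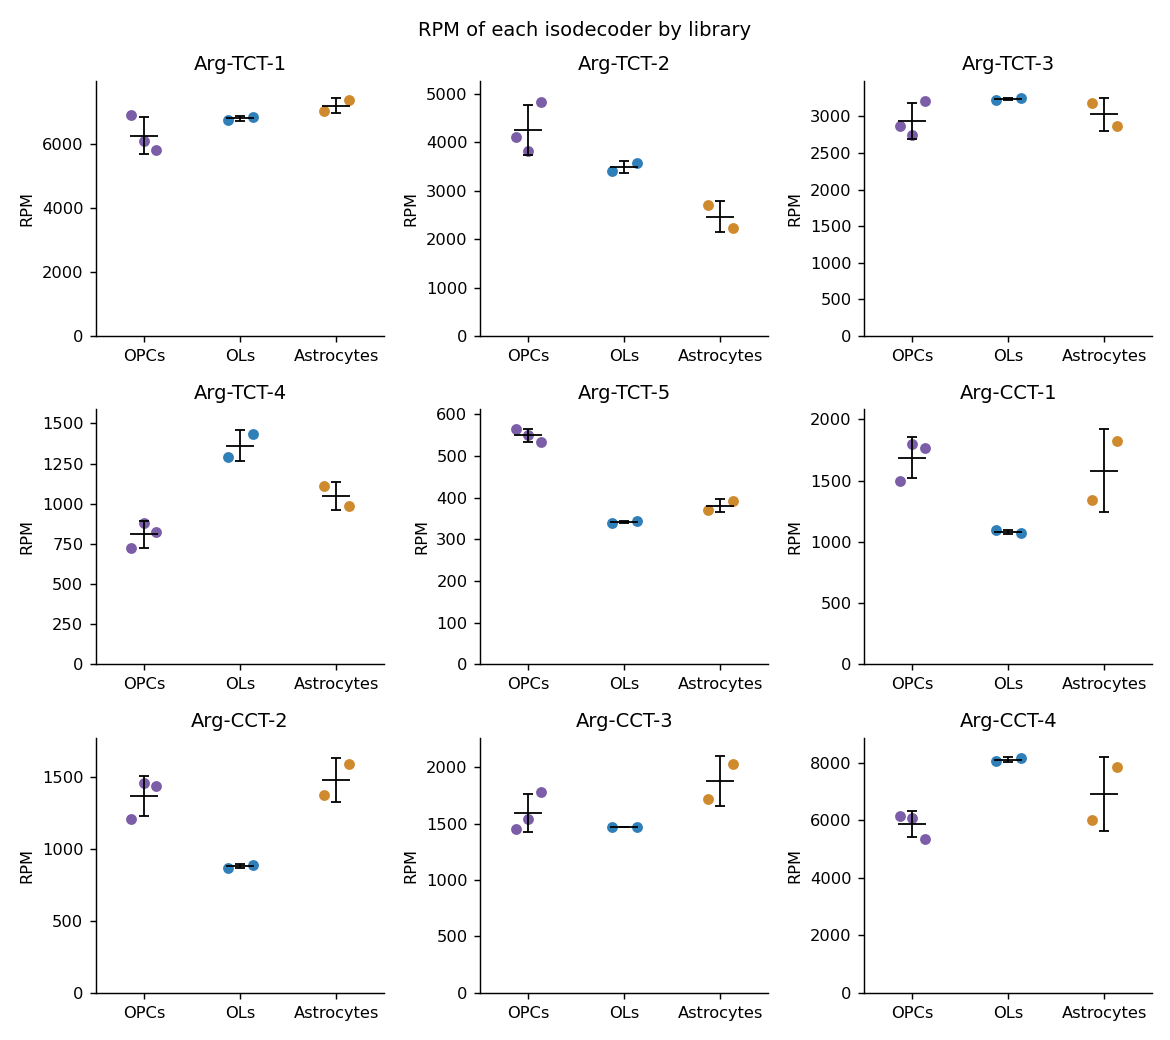
RPM of each of the 9 isodecoders in each library, on axes that start at 0, where points are libraries and black bars give the mean ± SD of the 3 OPC, 2 OL and 2 astrocyte libraries. Arg-TCT-4 was at 809 RPM on average in OPCs and 1361 RPM in OLs, whereas Arg-TCT-5 was at 549.6 and 341 RPM.

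The comparison of OLs with OPCs addresses which tRNAs differ between progenitor cultures and OL cultures, which still held cells that had not differentiated. Arg-TCT-4 was 1.69-fold as high in OLs, with means of 1361 ± 98.3 RPM (SD, n = 2) and 809 ± 81.6 RPM (SD, n = 3), which on the log2 scale is 0.75 with an SE of 0.134 (limma adjusted p = 0.0109). Arg-CCT-4 was 1.38-fold as high, with a log2 change of 0.47 ± 0.0911 SE (adjusted p = 0.0123). Lower in OLs were Arg-TCT-5 at 0.62-fold (log2 change -0.68 ± 0.129, adjusted p = 0.0116), Arg-CCT-1 at 0.64-fold (-0.64 ± 0.123, adjusted p = 0.0123) and Arg-CCT-2 at 0.65-fold (-0.63 ± 0.128, adjusted p = 0.0143). None of the 9 passed the threshold of 0.01, which 5.73% of the 192 isodecoders tested did. These 5 of 9 had an adjusted p under 0.05, beside 18.2% of all, and 7 of 9 were at levels in OLs and OPCs that did not overlap, beside 53.1%. Of the 122 isodecoders whose mean reached 100 RPM, which include all 9, 32.0% had an adjusted p under 0.05. There the same 5 passed 0.01, as did 19 of all 122. The median absolute log2 change was 0.47 over the 9 and 0.29 over all isodecoders tested.

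The remaining 4 had log2 changes in OLs of -0.28 for Arg-TCT-2 (adjusted p = 0.150), 0.14 for Arg-TCT-3 (adjusted p = 0.366), 0.12 for Arg-TCT-1 (adjusted p = 0.402) and -0.11 for Arg-CCT-3 (adjusted p = 0.537). The side of the threshold for the 5 above depended on the settings. Without OPC replicate 3 all 5 passed 0.01, with adjusted p from 0.0035 to 0.0075, beside 29 of all 192 isodecoders. With either OL replicate left out, which leaves 1 OL library, their calls at 0.05 were lost, as were most over all isodecoders. Scaling to cytosolic tRNAs or by median of ratios took 4 of these 5 past 0.01, all but Arg-CCT-4. Over all 192 isodecoders 17 and 22 passed under these scalings. Under the latter Arg-CCT-4 and Arg-TCT-2 had an adjusted p of 0.0415 each. This brought 6 of 9 under 0.05, beside 17.7% of all. The direction of each of the 5 was the same in all settings tried.

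**Figure D3:**
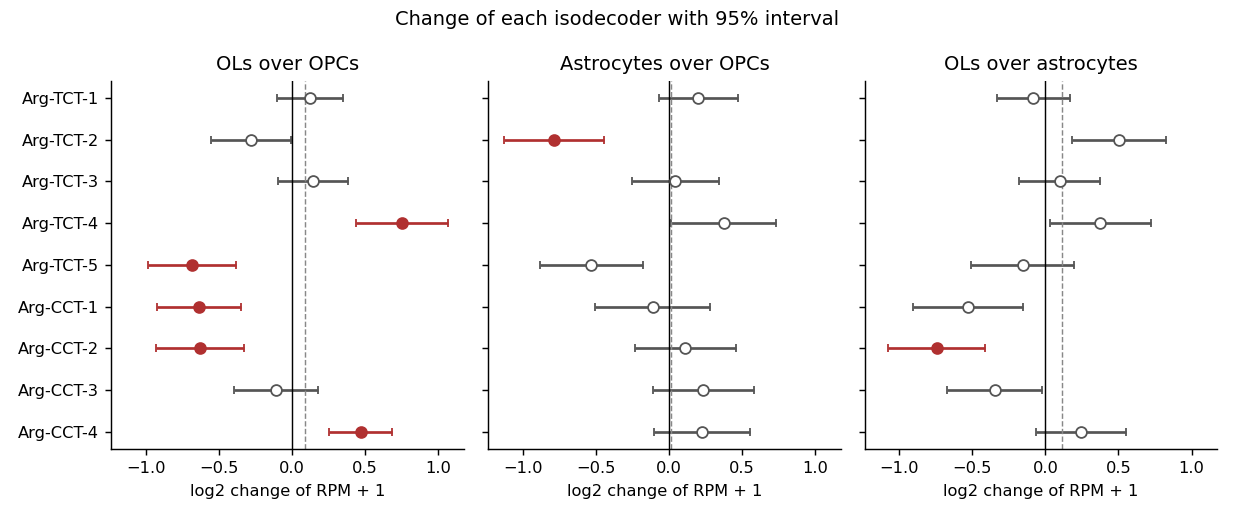
Log2 change of RPM + 1 for each isodecoder with its 95% interval in OLs over OPCs (left), astrocytes over OPCs (middle) and OLs over astrocytes (right), where filled red points have a limma adjusted p under 0.05 and the dashed line is the median of all isodecoders tested. In OLs over OPCs 5 points are filled, with Arg-TCT-4 and Arg-CCT-4 to the right of 0 and Arg-TCT-5, Arg-CCT-1 and Arg-CCT-2 to the left.

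Opposite differences within a pool offset each other in its sum. In the Arg-TCT pool the mean of OLs minus that of OPCs was 552 RPM for Arg-TCT-4, 532 RPM for Arg-TCT-1 and 299 RPM for Arg-TCT-3, against -770.4 RPM for Arg-TCT-2 and -208 RPM for Arg-TCT-5. The pool as a whole differed by 405 RPM. In the Arg-CCT pool Arg-CCT-4 alone differed by 2240.4 RPM, against -606 RPM for Arg-CCT-1, -489 RPM for Arg-CCT-2 and -125 RPM for Arg-CCT-3, and the pool differed by 1021 RPM.

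**Figure D4:**
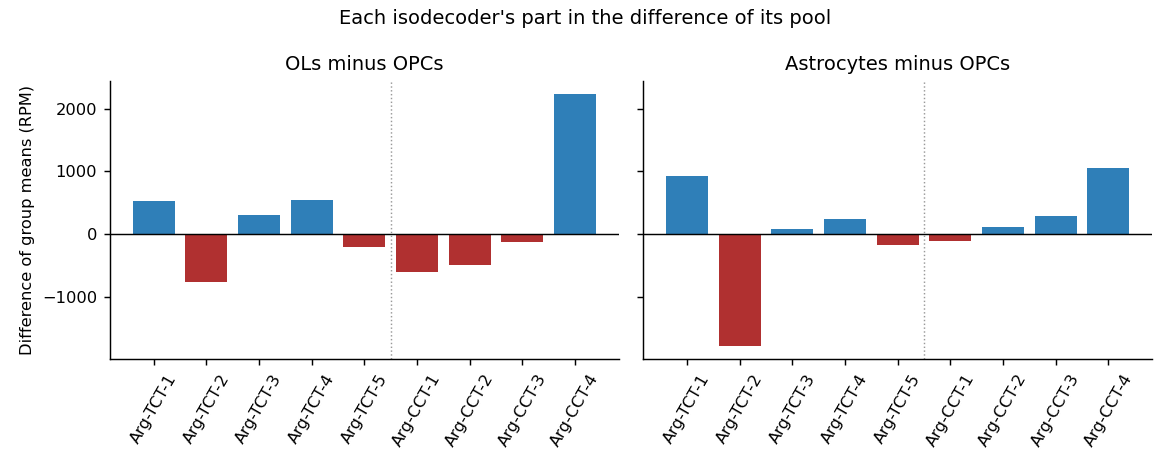
Difference of group means in RPM for each isodecoder, in OLs minus OPCs (left) and astrocytes minus OPCs (right), with blue bars above 0, red bars below 0 and the dotted line between the pools. No error is drawn, since each bar is a difference of means over 2 and 3 libraries, and the bars of one pool add up to the difference of that pool, such as 405 RPM for Arg-TCT in OLs minus OPCs.

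In astrocytes against OPCs the largest change among the 9 was that of Arg-TCT-2, at 0.58-fold. Its means were 2466 ± 324 RPM (SD, n = 2) and 4255 ± 521 RPM (SD, n = 3). On the log2 scale this is -0.79 with an SE of 0.149 (limma adjusted p = 0.0240), which did not pass 0.01. No isodecoder passed 0.01 in this comparison (0%), and limma called 40 of 192 at an unadjusted p under 0.05. Arg-TCT-2 was the 1 of 9 with an adjusted p under 0.05, beside 7.29% of all. Its adjusted p was 0.127 without astrocyte replicate 2 and 8.0e-05 under median-of-ratios scaling, with a log2 change of -0.65 to -0.92 over the alternatives.

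Arg-TCT-5 was at 0.69-fold (log2 change -0.53 ± 0.154, adjusted p = 0.0793) and Arg-TCT-4 at 1.30-fold (0.38 ± 0.157, adjusted p = 0.221). Astrocyte and OPC libraries were apart for these 2, for Arg-TCT-2 and for Arg-TCT-1, which makes 4 of 9 beside 39.6% of all. The 4 Arg-CCT isodecoders had log2 changes of -0.11 to 0.24 and adjusted p of 0.378 to 0.686. The mean of astrocytes minus that of OPCs was -1789 RPM for Arg-TCT-2 and 927 RPM for Arg-TCT-1, while that of the pool was -703 RPM. This comparison and that of OLs share the 3 OPC libraries, so their values stand side by side and were not correlated.

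The direct comparison of OLs and astrocytes also tests whether the change from OPCs differed between them. Arg-CCT-2 was lower in OLs, with means of 882 ± 15.5 RPM against 1483 ± 153 RPM (SD, n = 2 each), a fold of 0.60, which on the log2 scale is -0.74 with an SE of 0.151 (limma adjusted p = 0.00853). It was the 1 of 9 to pass 0.01, beside 6.25% of all isodecoders, and also the only one of the 9 to pass 0.05, beside 9.38%. Its adjusted p ranged from 0.000543 under median-of-ratios scaling to 0.112 without OL replicate 1, and it passed 0.01 in 6 of 15 alternatives. Arg-CCT-1 had a log2 change of -0.53 ± 0.170 (adjusted p = 0.0756), Arg-TCT-2 of 0.50 ± 0.145 (adjusted p = 0.0537), Arg-TCT-4 of 0.38 ± 0.155 (adjusted p = 0.158) and Arg-CCT-3 of -0.35 ± 0.147 (adjusted p = 0.168). The other 4 lay between -0.16 and 0.24, with adjusted p of 0.311 to 0.683. All 9 had libraries that did not overlap between the groups of 2, as had 60.4% of all isodecoders. At a mean of at least 100 RPM, 3 of 9 had an adjusted p under 0.05, beside 19.7% of the 122 tested.

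The make-up of each pool was compared through the share that each isodecoder took of its pool, a measure that scaling of the library leaves nearly as it is. Arg-TCT-4 took 4.76% of the Arg-TCT pool in OPC replicate 1 (95% Wilson interval 4.48 to 5.06%), 6.27% in replicate 2 (5.95 to 6.60%) and 5.41% in replicate 3 (5.19 to 5.65%). In OLs it took 8.62% (8.27 to 8.98%) and 9.26% (8.91 to 9.63%), and in astrocytes 7.73% (7.45 to 8.02%) and 7.13% (6.87 to 7.40%). The groups did not overlap, and the intervals of the 3 OPC libraries, which cover counting error only, did not overlap each other. The mean share was 3.46 points higher in OLs than in OPCs (exact permutation p = 0.1, the smallest possible, adjusted 0.3) and 1.95 points higher in astrocytes (exact permutation p = 0.2, adjusted 0.3). OLs exceeded astrocytes by 1.51 points (exact permutation p = 0.33, the smallest possible, adjusted 0.33).

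Arg-CCT-4 took 59.7, 55.9 and 51.8% of the Arg-CCT pool in OPCs, 70.1 and 70.4% in OLs and 57.5 and 59.0% in astrocytes, so that astrocytes lay within the OPC range and OLs above it. Arg-CCT-4 outnumbered Arg-CCT-1 by 3.51 ± 0.556 to 1 in OPCs (SD, n = 3), by 7.5 ± 0.202 to 1 in OLs and by 4.39 ± 0.124 to 1 in astrocytes (SD, n = 2 each). Arg-TCT-2 took 28.7 ± 2.70% of the Arg-TCT pool in OPCs (SD, n = 3), 22.9 ± 0.301% in OLs and 17.5 ± 1.81% in astrocytes (SD, n = 2 each). Arg-TCT-1 took 42.3 ± 3.74%, 44.6 ± 0.404% and 51.0 ± 3.07% in the same order. The ratio of Arg-TCT-4 to Arg-TCT-2 was 0.192 ± 0.034 in OPCs (SD, n = 3), 0.390 ± 0.015 in OLs and 0.427 ± 0.020 in astrocytes (SD, n = 2 each).

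**Figure D5:**
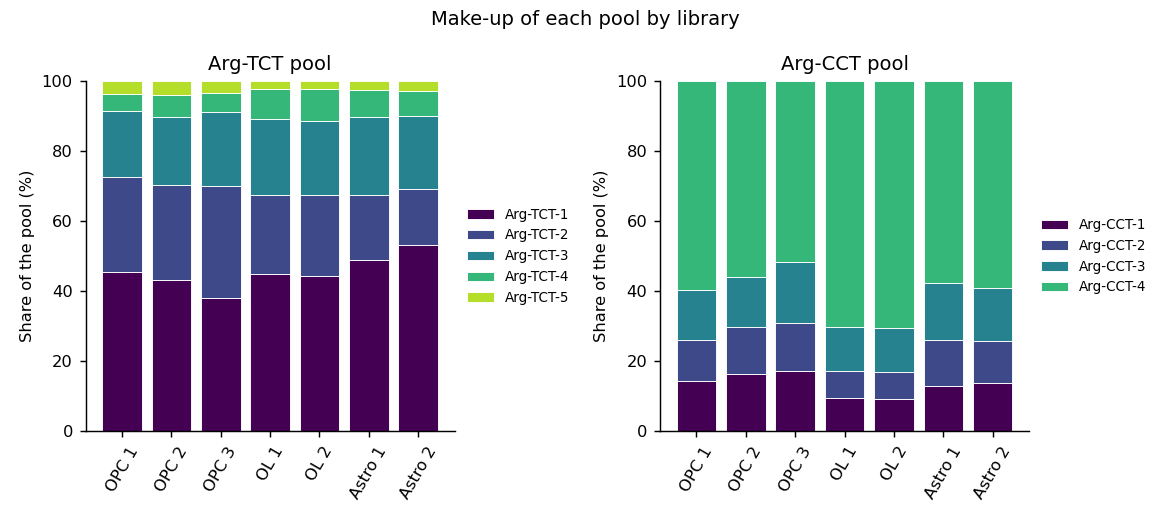
Share in percent that each isodecoder took of the Arg-TCT pool (left) and the Arg-CCT pool (right) in each of the 7 libraries, where every bar adds up to 100%. The Arg-CCT-4 segment filled 70.1 and 70.4% of the pool in the OL libraries and 51.8 to 59.7% in the others.

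Across the 184 shares tested, none of the 9 passed 0.01 in OLs against OPCs, beside 2.17% of all, and 3 of 9 had an adjusted p under 0.05, beside 14.1%. These were Arg-TCT-5 (log2 change of share -0.72 ± 0.0571, limma adjusted p = 0.0101), Arg-CCT-1 (-0.77 ± 0.0881, adjusted p = 0.0153) and Arg-CCT-2 (-0.76 ± 0.0899, adjusted p = 0.0157). Arg-TCT-4 (0.71 ± 0.138, adjusted p = 0.0509) and Arg-CCT-4 (0.33 ± 0.0726, adjusted p = 0.0584) missed it. Among the 110 shares left at a mean of at least 100 RPM, 5 of 9 had an adjusted p under 0.05, beside 32.7% of all. There 3 of 9 passed 0.01, beside 16 of all 110. No share passed 0.01 (0%) or 0.05 (0%) in astrocytes against OPCs, where limma called 43 at an unadjusted p under 0.05 and Arg-TCT-2 and Arg-TCT-5 had an adjusted p of 0.0602 each. In OLs against astrocytes none of the 9 passed 0.01, beside 3.8% of all, and Arg-CCT-2 (-0.72 ± 0.0980, adjusted p = 0.0153) and Arg-CCT-1 (-0.50 ± 0.0909, adjusted p = 0.0281) had an adjusted p under 0.05, beside 14.1%. At a mean of at least 100 RPM 4 of 9 did in this comparison, beside 26.4% of all, and 1 of 9 passed 0.01. Leaving out an OL replicate leaves 1 OL library. The calls at 0.05 among the 9 shares were then lost in both comparisons of OLs, as were most over all shares.

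The tRNAs with the most similar course over the 7 libraries were found by the Pearson correlation of log2 levels, as a description. For the Arg-TCT pool these were Arg-ACG (r = 0.88), Ser-GCT (r = 0.88), which reads the serine codons of the same box, and Tyr-GTA (r = 0.83), of 50 pools. For the Arg-CCT pool they were Arg-CCG (r = 0.97), Glu-CTC (r = 0.90) and Asp-GTC (r = 0.87). Among 113 isodecoders of other pools whose mean reached 100 RPM, Gly-TCC-1 (r = 0.94), SeC-TCA-1 (r = 0.91), the tRNA for selenocysteine, and Ala-AGC-6 (r = 0.90) came closest to Arg-TCT-4. SeC-TCA-1 was at 2195 RPM on average in OPCs, 3356 RPM in OLs and 2662 RPM in astrocytes, in the same order of cell types as Arg-TCT-4.

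Of the 3 other arginine pools, 0 passed 0.01 in any comparison. Their log2 changes in OLs against OPCs were 0.25 for Arg-ACG (limma adjusted p = 0.237), 0.14 for Arg-CCG (adjusted p = 0.119) and 0.0035 for Arg-TCG (adjusted p = 0.987). In astrocytes against OPCs they lay between -0.10 and 0.17, and in OLs against astrocytes between -0.03 and 0.31. The study counts Arg-TCT with Lys-TTT, Gln-TTG and Glu-TTC among the tRNAs whose wobble uridine can carry a thiol group. The 3 others of that class had 0 members past 0.01 as well, with a median log2 change of -0.07 in OLs against OPCs, -0.01 in astrocytes against OPCs and -0.05 in OLs against astrocytes, beside 0.12, 0.0029 and 0.11 over all pools. For Arg-TCT itself, however, the study saw no shift in any cell type on gels that slow thiolated tRNAs. It also reported a read signature in the anticodon loop of Arg-TCT isodecoders that was modestly weaker in OLs than in OPCs and astrocytes.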

How the data were processed

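QuantM-seq libraries of 3 OPC, 2 OL and 2 astrocyte cultures were grouped by the deposited labels. Per the study's methods, the authors trimmed reads with cutadapt and mapped them with bowtie2 to the high-confidence GtRNAdb set of mature mm10 tRNAs, in which identical genes were merged, and to mitochondrial tRNAs. They assigned reads to isodecoders with featureCounts by strand and above a minimum mapping quality, kept replicates separate and scaled the counts to RPM. The deposited RPM tables give isodecoders in one table and anticodon sums in the other, for cytosolic tRNAs. The deposited tables of the authors' DESeq2 comparison of OPCs and OLs hold mean levels, fold changes and p-values, and were not used.

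The tRNAs described and the lists beside them were chosen with earlier results of these data known, although the rule that picks the isodecoders uses their names alone. Named are both pools, all of their isodecoders, the other arginine pools, 4 other split boxes, the thiolated pools and the 3 tRNAs most correlated with each pool and with Arg-TCT-4. log2(RPM + 1) was compared in R 4.3.3 by limma 3.58.1, whose variance trend was used for pools and isodecoders but not for shares, over all 52 pools, the 192 isodecoders whose mean reached 1 RPM and the 184 isodecoder shares in pools with at least 2 such isodecoders. Tests were two-sided, with Benjamini-Hochberg adjustment across every feature tested and a threshold of 0.01 on the adjusted p. Fits against OPCs held the 5 libraries concerned, and OLs were compared with astrocytes in a fit of all 7. The pseudocount shrinks fold changes of tRNAs at low levels. Single values per library were compared by two-sided exact permutation tests, adjusted over the 3 comparisons of each quantity. Scripts were tested on simulated data.

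Whole reads could be recovered for 100% of the values in every library, within 0.1 read, which gave the depth and the 95% Wilson intervals. Only 43 to 55 low values per library carried that step, so no test on counts was run. Alternatives were other pseudocounts, filters, scalings, fits and thresholds, a replicate block, and leaving out each library. Numbers in Python 3.11.15 came from numpy 2.4.6, pandas 2.3.3 and scipy 1.17.1.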

Additional observations from a re-analysis of the deposited data

Results flagged for a closer look

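Arg-CCT-2 was singled out because its change from OPCs differed between OLs and astrocytes by a direct test. The log2 change between OLs and astrocytes was -0.74 (limma adjusted p = 0.00853), with -0.63 in OLs against OPCs and 0.11 in astrocytes against OPCs. Both OL libraries, at 872 and 893 RPM, lay below both astrocyte libraries, at 1374 and 1591 RPM. Leaving out any library but OPC replicate 3 took the adjusted p above 0.01, to at most 0.112. Among the 9 isodecoders and both pools no other one passed this test, and for none did OLs and astrocytes lie on opposite sides of all OPC libraries.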

How the results depend on the processing

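With 2 libraries in a group, leaving out 1 assumes that the lone library varies like the other groups. Under all alternatives, 860 of 928 values for single tRNAs kept their direction and side of the threshold, 48 passed it newly, 9 no longer did and 11 turned direction. The cause of these moves was not tested.

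The number of pools with an adjusted p under 0.01 was 0 in each comparison, and 4 passed 0.05 in OLs against OPCs. Isodecoders past 0.01 in OLs against OPCs numbered 11, and 17 after scaling to cytosolic tRNAs, 22 under median-of-ratios scaling, 2 without the variance trend, 35 at 0.05, 1 with no filter, 19 at a mean of at least 100 RPM and 0 to 29 with 1 library left out. In astrocytes against OPCs they numbered 0, and 17 under median-of-ratios scaling, 14 at 0.05, 10 in a fit of all 7 libraries, 1 at a mean of at least 100 RPM and 0 to 17 with 1 library left out. In OLs against astrocytes they numbered 12, and 0 without the trend, 0 with no filter and 0 to 20 with 1 library left out.

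Shares past 0.01 numbered 4 in OLs against OPCs, and 12 with a pseudocount of 10 RPM, 10 with a trend, 26 at 0.05, 17 in a fit of all 7 libraries, 1 with no filter, 16 at a mean of at least 100 RPM and 0 to 5 with 1 library left out. In OLs against astrocytes they numbered 7, and 15 with a trend, 26 at 0.05, 0 in a fit of the 4 libraries, 15 at a mean of at least 100 RPM and 0 to 8 with 1 library left out.

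Replicate numbers were not taken to pair the libraries. OLs were derived from 2 of the OPC replicates, but the numbers were not stated to mark which. Over 2 pairs each, same-numbered deviations correlated by 0.000153 between OLs and OPCs, 0.168 between astrocytes and OPCs and -0.29 between OLs and astrocytes. With the replicate number as a block, isodecoders past 0.01 numbered 45 in OLs against OPCs, 24 in astrocytes against OPCs and 10 in OLs against astrocytes, and shares 0 in each comparison. Of the 9 isodecoders, 5 then passed 0.01 in OLs against OPCs, 1 in astrocytes against OPCs and 1 in OLs against astrocytes, and 0 of their 9 shares passed 0.05 in any comparison. The share of Arg-CCT-2 in astrocytes against OPCs was then 0.0025. No other library had the number of OPC replicate 3, so the block fitted that library exactly and it did not add to the changes. The block also left little spread to measure, which limits what its counts show.

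Most turns of direction were in small values, given here with the range over left-out libraries in brackets. Under median-of-ratios scaling the Arg-TCT pool in OLs against OPCs was -0.022. Without astrocyte replicate 2, the Arg-CCT pool was -0.012 in astrocytes against OPCs (-0.012 to 0.336) and 0.15 in OLs against astrocytes (-0.20 to 0.15), the share of Arg-CCT-2 in astrocytes against OPCs was 0.021 (-0.12 to 0.021), the log2 ratio of the pools in OLs against astrocytes was -0.065 (-0.065 to 0.34), and the share of both pools in arginine tRNA in astrocytes against OPCs was -0.045 points (-0.045 to 1.81). Without astrocyte replicate 1, Arg-CCT-1 in astrocytes against OPCs was 0.11 (-0.33 to 0.11), Arg-TCT-3 there was -0.033 (-0.033 to 0.12), and the share of Arg-TCT-3 in OLs against astrocytes was 0.039 (-0.058 to 0.039). Without OPC replicate 2, Arg-TCT-3 in astrocytes against OPCs was -0.0043, and the share of both pools in arginine tRNA in OLs against OPCs was 0.076 points (-0.93 to 0.076). The share of Arg-CCT-2 in astrocytes against OPCs was 0.0025 without OPC replicate 3, and that of Arg-TCT-3 in OLs against astrocytes 0.0059 without OL replicate 2. Larger moves came with the largest isodecoder of each pool in its place. The log2 ratio was then -0.35 in OLs against OPCs (exact permutation p = 0.1, the smallest possible), beside -0.09 for the pools. Its OL and OPC libraries did not overlap. In OLs against astrocytes it turned to -0.32 (exact permutation p = 0.33, the smallest possible), beside 0.14 for the pools.

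The fewest reads behind any value of the 9 isodecoders were 540. The 95% Wilson intervals of the Arg-TCT-4 share did not overlap among the 3 OPC libraries. For this share, counting error was thus smaller than the spread between the OPC libraries. This did not hold throughout, since the intervals of the Arg-TCT-4 share overlapped between the OL libraries. Those of the Arg-TCT-5 share overlapped among the 3 OPC libraries.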

Other observations

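Arg-CCT-4 and Arg-CCG-3, of different anticodons, had nearly equal levels, a pair named after their values were seen. They were at 6166 and 6190 RPM in OPC replicate 1, 6100.4 and 6099.7 RPM in OPC replicate 2 and 5362 and 5125 RPM in OPC replicate 3. In OLs they were at 8051 and 7371 RPM in replicate 1 and 8182 and 7399 RPM in replicate 2, and in astrocytes at 6006 and 5859 RPM in replicate 1 and 7842 and 7646 RPM in replicate 2. The ratio stayed between 0.996 and 1.11, and the log2 levels had a Pearson r of 0.98 over the 7 libraries, which differ in group and depth. Of 113 isodecoders of other pools whose mean reached 100 RPM, it ranked 2 by this r, after Leu-CAA-2 (r = 0.98). The sequences of the pair were not compared here, and whether reads are shared between them was not tested.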
